A study of Mus musculus with 28 samples.

Results

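STAT transcription factors and the suppressors of cytokine signaling (SOCS) form the forward arm and the feedback arm of a single cytokine pathway. The genes described here are 9 of the 13103 in the deposited table, taken by name: Stat3, Stat4, Stat5a, Stat5b, Stat6, Socs1, Socs2, Socs3 and Cish. All 9 were present, and all 9 were among the 12548 genes that passed the filter on low values. The RNA came from regulatory T cells (Tregs) of Foxp3-GFP mice, in which green fluorescent protein reports Foxp3, the transcription factor that defines Tregs. Every mouse carried an intradermal B16 melanoma, a transplanted tumor line, for 7 to 10 days, so the spleens are those of tumor-bearing mice too. Cells were sorted on CD45, CD3, CD4, GFP and surface OX40, a costimulatory receptor encoded by Tnfrsf4. This gave 4 groups, named after the labels as spleen OX40minus (n = 3 mice), spleen OX40plus (n = 3), tumor OX40minus (n = 4) and tumor OX40plus (n = 4). The age and sex of the mice, the construction of the reporter allele and whether a mouse number means the same animal in both tissues are details not given in the sources used here.

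Cytokine receptors without their own enzyme activity rely on Janus kinases, which phosphorylate STAT proteins on tyrosine. The phosphorylated STATs pair, enter the nucleus and bind DNA. STAT5 follows interleukin-2 and is needed for Tregs, STAT3 follows interleukin-6 and interleukin-10, STAT4 follows interleukin-12 and STAT6 follows interleukin-4. SOCS1, SOCS2, SOCS3 and CIS (the product of Cish) are induced by STATs and shut the receptor down by blocking kinases, by covering docking sites and by marking proteins for degradation through the SOCS box. The RNA data measure transcripts and not phosphorylation, so they do not show the activity of the pathway.

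The letters that STAT dimers bind are shown first, because the feedback genes Socs3 and Cish carry them beside a RefSeq transcription start. The motif TTCNNNGAA, the common STAT spacing with 3 bases between TTC and GAA, and the same letters with 4 bases between them, the spacing preferred by STAT6, were searched in RefSeq promoters of build GRCm38.p6, from 250 bases before to 50 bases after each start. Both motifs read the same on either strand, and their different spacing keeps them from sharing a match. Of the 9 genes, 8 had an entry, with 11 promoters in all, and Socs2 had none. TTCNNNGAA was found in 2 of these 11 promoters, those of Socs3 and Cish, and in 8.3% of all 32851 promoters. The wider spacing was found in 0 of the 11 and in 6.95% of all. The first line below is the 250 bases before the Socs3 start (chr11:117969367-117969616, minus strand), and the second is 30 bases around the Cish start (chr9:107296654-107296683, plus strand), with each match to TTCNNNGAA in capitals.
Socs3: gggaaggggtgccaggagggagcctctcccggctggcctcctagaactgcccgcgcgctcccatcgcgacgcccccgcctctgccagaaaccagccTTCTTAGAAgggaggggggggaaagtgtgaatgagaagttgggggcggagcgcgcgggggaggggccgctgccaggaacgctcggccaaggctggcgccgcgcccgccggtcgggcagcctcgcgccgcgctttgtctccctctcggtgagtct
Cish: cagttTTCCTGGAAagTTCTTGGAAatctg
Counting from 1 at the RefSeq start, the Socs3 match begins at position -154 and the 2 Cish matches begin at positions 1 and 12. Both printed stretches lie inside the gene spans of GENCODE M21, 117966079 to 117970047 for Socs3 and 107296026 to 107302784 for Cish. These RefSeq starts are thus not the outermost annotated starts, and which start the cells used was not tested. The matches are of letters only, and no binding was measured in this study.

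Levels are given in CPM, read counts scaled to a common effective library size. A mouse and gate had 2 libraries, and since these differed little more than sampling alone would give, they stand together for 1 sample. The samples held 22.4 M to 29.6 M estimated counts each. A count of 3 was thus worth 0.104 to 0.13 CPM, and all 9 genes lay far above that limit in every sample. Differences are log2 fold changes of a limma fit to all 14 samples, with their standard error (SE), and the threshold for a call was 0.05 on the p adjusted by Benjamini-Hochberg over all 12548 genes. Tnfrsf4 followed the gates in every mouse, at 218 to 298 CPM in spleen OX40minus, 588 to 810 in spleen OX40plus, 1816 to 2159 in tumor OX40minus and 3166 to 3583 in tumor OX40plus. All 9 Treg markers of the list were detected in each group, and Foxp3 itself lay between 23.3 and 129.7 CPM. Markers of other cells were present too. The 9 macrophage and monocyte markers in the table summed to 739 to 942 CPM in spleen OX40minus, 82.0 to 197 in spleen OX40plus, 221 to 333 in tumor OX40minus and 51.9 to 65.7 in tumor OX40plus. Apoe, which had the highest mean over the groups, was at 174 to 179, 33.7 to 89.3, 62 to 129.7 and 6.38 to 18.4 CPM in the same order, and Mertk was below 3 counts per sample in every tumor OX40plus sample. In such sorted bulk samples, fewer cells of a type and less RNA per cell cannot be told apart.

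In tumors, 8 of the 9 STAT and SOCS genes were lower in OX40plus than in OX40minus Tregs and 0 were higher, and in each of the 8 no sample of one gate reached the range of the other. The background of this comparison was broad: 38.4% of all genes tested were called, 18.5% higher and 19.9% lower. The median log2 fold change was -0.64 over the 9 genes and -0.08 over all genes. Ranges of the gates lay apart for 32.9% of all genes. The largest differences were those of Stat4 (3.33-fold lower), Socs3 (2.88-fold), Socs2 (2.29-fold) and Stat5b (2.08-fold), and Stat5a was the gene that was not called. In spleens, 4 of the 9 were lower in OX40plus and 0 were higher, against a background of 7.89% of genes called, 4.34% higher and 3.55% lower. Those 4 were Socs2, Socs3, Stat4 and Stat5b, with a median over the 9 genes of -0.23 against 0.01 over all genes. Ranges of the spleen gates lay apart for 31.9% of all genes. Among the 9 genes, 5 were apart there with OX40plus lower and 1 with OX40plus higher.

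**Figure D1:**
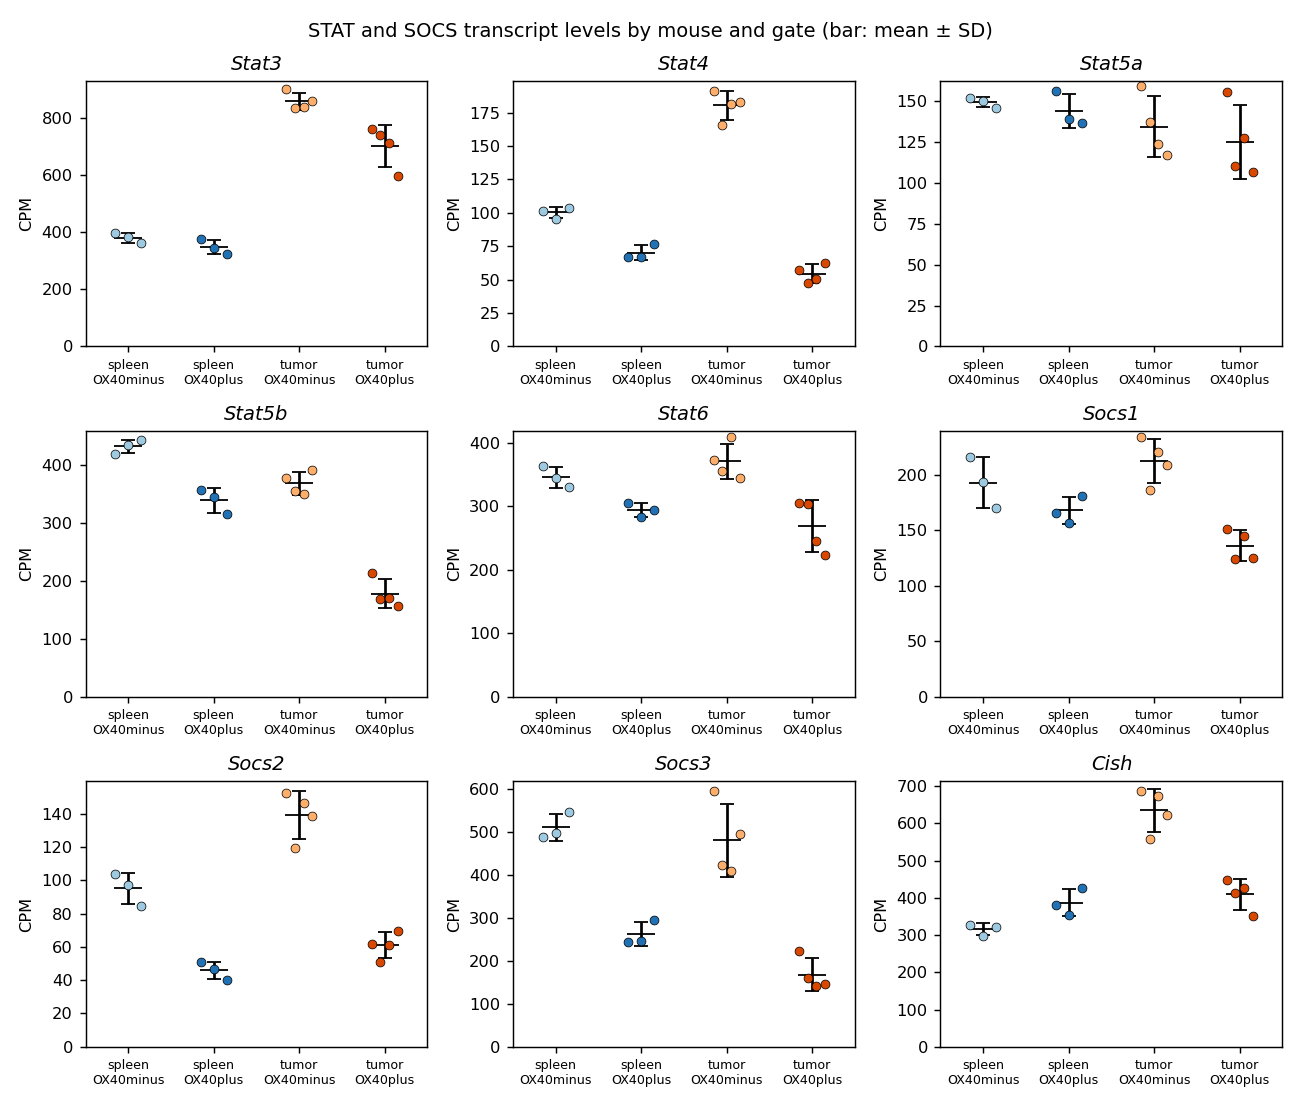
Level of each STAT and SOCS gene in CPM (vertical axes, from 0) in the 4 groups, with 1 point per mouse and the mean ± SD as a bar. In the panels of Stat4, Stat5b, Stat6, Socs2 and Socs3 the OX40plus points lie below the OX40minus points in both tissues. The panel of Stat3 separates mainly by tissue.

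Stat4, which carries interleukin-12 and type I interferon signals and drives the T helper 1 program, had the largest gap of the 9 genes in tumors. It measured 191, 166, 181 and 183 CPM in the tumor OX40minus samples of mice 1 to 4 and 57.6, 47.2, 50.7 and 62.6 CPM in their OX40plus samples. Spleen OX40minus samples had 101, 95.7 and 104 CPM and spleen OX40plus samples 67.3, 67.0 and 76.7 CPM. The 4 groups did not overlap with each other, from tumor OX40plus at the bottom through spleen OX40plus and spleen OX40minus to tumor OX40minus at the top. The OX40 difference was -1.73 ± 0.09 (SE) in tumors (limma adjusted p = 5.72e-09) and -0.52 ± 0.11 in spleens (limma adjusted p = 0.00668). The tumor difference was the larger one by a direct test of the 2 differences, at -1.22 ± 0.14 (limma adjusted p = 0.000112). Stat4 also moved in opposite directions between tissues: it was higher in tumor than in spleen among OX40minus Tregs (0.85 ± 0.10, limma adjusted p = 2.95e-06) and lower among OX40plus Tregs (-0.37 ± 0.10, limma adjusted p = 0.00443).

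Stat5b and Stat5a encode the 2 STAT5 proteins that transmit interleukin-2 signals and keep Foxp3 expressed. Stat5b measured 378, 354, 350 and 391 CPM in tumor OX40minus samples and 214, 169, 171 and 157 CPM in tumor OX40plus samples, a difference of -1.06 ± 0.09 (limma adjusted p = 3.98e-07). In spleens it measured 419, 434 and 443 CPM in OX40minus and 358, 345 and 316 CPM in OX40plus samples. That difference of -0.35 ± 0.10 was just past the threshold (limma adjusted p = 0.0478) and was not called in 17 of 24 alternatives, among them the fit with the mouse as a replicate block (limma adjusted p = 0.0957). The difference between tissues was -0.71 ± 0.14 (limma adjusted p = 0.00366). Tumor OX40plus was the lowest group without overlap, whereas spleen OX40plus and tumor OX40minus overlapped. Among OX40minus Tregs the tissue difference of -0.23 ± 0.10 (limma adjusted p = 0.0487) was not called in 13 of 23 alternatives, and among OX40plus Tregs it was -0.94 ± 0.10 (limma adjusted p = 3.25e-07).

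Stat5a was flat by comparison. Its samples ranged from 146 to 152 CPM in spleen OX40minus, 137 to 156 in spleen OX40plus, 117 to 159 in tumor OX40minus and 106 to 156 in tumor OX40plus, and every neighbouring pair of groups overlapped. The tumor OX40 difference was -0.11, with a 95% interval from -0.36 to 0.14 (limma adjusted p = 0.492), and the spleen one -0.06, from -0.35 to 0.23 (limma adjusted p = 0.955). Stat5b made up 73.3% ± 2.81 (SD, n = 4) of the summed Stat5a and Stat5b CPM in tumor OX40minus and 58.9% ± 1.46 (n = 4) in tumor OX40plus Tregs. In spleens the share was 74.3% ± 0.92 and 70.3% ± 0.91 (n = 3 each). The log2 ratio of Stat5b to Stat5a was lower in all tumor OX40plus samples than in all tumor OX40minus samples. The mean difference was -0.95 (exact permutation test, two-sided p = 0.0286, the smallest possible with 4 against 4). This permutation took the samples as independent and did not keep the pairing of the gates by mouse number. Adjusted over the 2 tissues the permutation p was 0.0571. That is the lowest adjusted value these sample numbers allow, so the adjusted test could not pass 0.05 and decides nothing. In spleens the same test gave p = 0.1, the smallest an exact permutation of 3 against 3 can give. The 2 genes are near neighbours on chromosome 11 and share sequence. Of the 31-base words of the longest Stat5a coding transcript 21.7% occur in Stat5b, and 16.1% of those of Stat5b occur in Stat5a. The division of reads between them is thus uncertain, by an amount that was not tested.

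**Figure D2:**
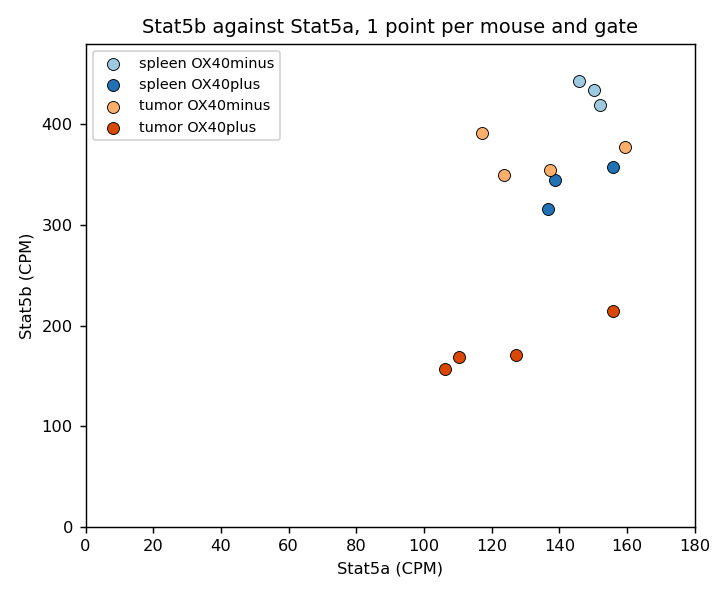
Stat5b (vertical axis, CPM) against Stat5a (horizontal axis, CPM), 1 point per mouse and gate, coloured by group. The 4 tumor OX40plus points lie at 157 to 214 CPM of Stat5b, below all others, and within the Stat5a range of the tumor OX40minus points or just under it.

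Stat3 separated by tissue more than by gate. It measured 902, 837, 841 and 860 CPM in tumor OX40minus and 763, 742, 715 and 597 CPM in tumor OX40plus samples. Spleen samples had 397, 385 and 362 CPM in OX40minus and 376, 345 and 326 CPM in OX40plus, 2 ranges that overlapped. Tumor levels were above spleen levels in both gates, by 1.17 ± 0.09 in OX40minus (limma adjusted p = 1.65e-08) and by 1.01 ± 0.09 in OX40plus Tregs (limma adjusted p = 6.64e-08). The OX40 difference in tumors was small and called (-0.29 ± 0.08, limma adjusted p = 0.0107), and that in spleens was not called (-0.13, 95% interval -0.33 to 0.07). Stat6, the interleukin-4 factor, was at 344 to 409 CPM in tumor OX40minus and 223 to 305 CPM in tumor OX40plus, a difference of -0.47 ± 0.10 (limma adjusted p = 0.00128). Its spleen samples lay at 330 to 363 CPM in OX40minus and 284 to 305 CPM in OX40plus, apart in range but not called (-0.23, 95% interval -0.47 to 0.01). Neither tissue comparison of Stat6 was called.

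Socs3, the feedback inhibitor best known for the interleukin-6 receptor subunit gp130, had the widest gap of the 4 feedback genes in tumors, and Socs2 had it in spleens. It measured 594, 422, 409 and 496 CPM in tumor OX40minus samples and 224, 160, 142 and 145 CPM in tumor OX40plus samples. In spleens it measured 488, 497 and 545 CPM in OX40minus and 244, 246 and 294 CPM in OX40plus samples. Both gates were apart in both tissues, while the OX40minus groups of tumor and spleen overlapped each other. The OX40 differences were -1.53 ± 0.14 in tumors (limma adjusted p = 9.42e-07) and -0.97 ± 0.16 in spleens (limma adjusted p = 0.00121). Whether these 2 differences differ was not settled: the value of -0.56 ± 0.21 had an adjusted p = 0.111 in limma, and an adjusted p = 0.0304 with the mouse as a replicate block. Without tumor OX40plus mouse 1, the highest of its group, the value was -0.71 (limma adjusted p = 0.0163). Socs3 was lower in tumor than in spleen among OX40plus Tregs (-0.66 ± 0.15, limma adjusted p = 0.00118).

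Socs2, known for restraining growth hormone signals, fell by the most similar amounts among the 4 members called lower in both tissues. It measured 153, 120, 147 and 139 CPM in tumor OX40minus and 61.7, 51.2, 61.3 and 69.8 CPM in tumor OX40plus samples. Spleen samples had 104, 96.9 and 84.8 CPM in OX40minus and 50.8, 46.5 and 40.4 CPM in OX40plus. The differences were -1.19 ± 0.11 in tumors (limma adjusted p = 1.32e-06) and -1.05 ± 0.13 in spleens (limma adjusted p = 9.43e-05), and their own difference was -0.14 with a 95% interval from -0.51 to 0.23. No 2 groups overlapped, though the highest spleen OX40plus sample, at 50.8 CPM, was next to the lowest tumor OX40plus sample, at 51.2 CPM. Tumor levels were higher than spleen levels in OX40minus (0.55 ± 0.12, limma adjusted p = 0.00114) and in OX40plus Tregs (0.41 ± 0.12, limma adjusted p = 0.00842). A processed pseudogene, Gm9847, holds 21.7% of the 31-base words of the longest Socs2 coding transcript, and a transcript of the gene model Gm28177, next to Stat4, holds 31% of those of Stat4.

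Cish, whose product CIS is induced by STAT5 and restrains cytokine and T cell receptor signals, was lower in OX40plus Tregs of tumors only. It measured 687, 559, 673 and 623 CPM in tumor OX40minus samples and 449, 413, 426 and 352 CPM in tumor OX40plus samples, a difference of -0.63 ± 0.09 (limma adjusted p = 6.54e-05). Spleen samples had 328, 298 and 322 CPM in OX40minus and 381, 355 and 426 CPM in OX40plus. There all OX40plus samples were above all OX40minus samples, but the difference of 0.29 ± 0.11 was not called (limma adjusted p = 0.131). The OX40 differences of the tissues differed from each other by -0.92 ± 0.14 (limma adjusted p = 0.000893). Among OX40minus Tregs Cish was higher in tumor than in spleen (1.00 ± 0.10, limma adjusted p = 3.47e-07), and among OX40plus Tregs the ranges overlapped (0.08, 95% interval -0.13 to 0.29, and -0.02 with scaling by library total).

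Socs1, which blocks Janus kinases directly, measured 234, 186, 221 and 209 CPM in tumor OX40minus and 151, 124, 144 and 125 CPM in tumor OX40plus samples. The gates did not overlap in tumors, and the difference was -0.64 ± 0.10 (limma adjusted p = 0.000103). In spleens the ranges of 170 to 216 CPM in OX40minus and 157 to 181 CPM in OX40plus overlapped, with a difference of -0.20 and a 95% interval from -0.44 to 0.05. The difference between the tissues, -0.44 ± 0.15, was not called in limma (adjusted p = 0.0721). It was called with scaling by library total (-0.51, limma adjusted p = 0.0265), without tumor OX40minus mouse 2 (-0.51, limma adjusted p = 0.0463) and without tumor OX40plus mouse 1 (-0.50, limma adjusted p = 0.0435). Among OX40plus Tregs Socs1 was lower in tumor than in spleen (-0.30 ± 0.11, limma adjusted p = 0.0203), a call that was lost without spleen OX40plus mouse 3 (limma adjusted p = 0.0836) and without tumor OX40plus mouse 2 (limma adjusted p = 0.058).

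**Figure D3:**
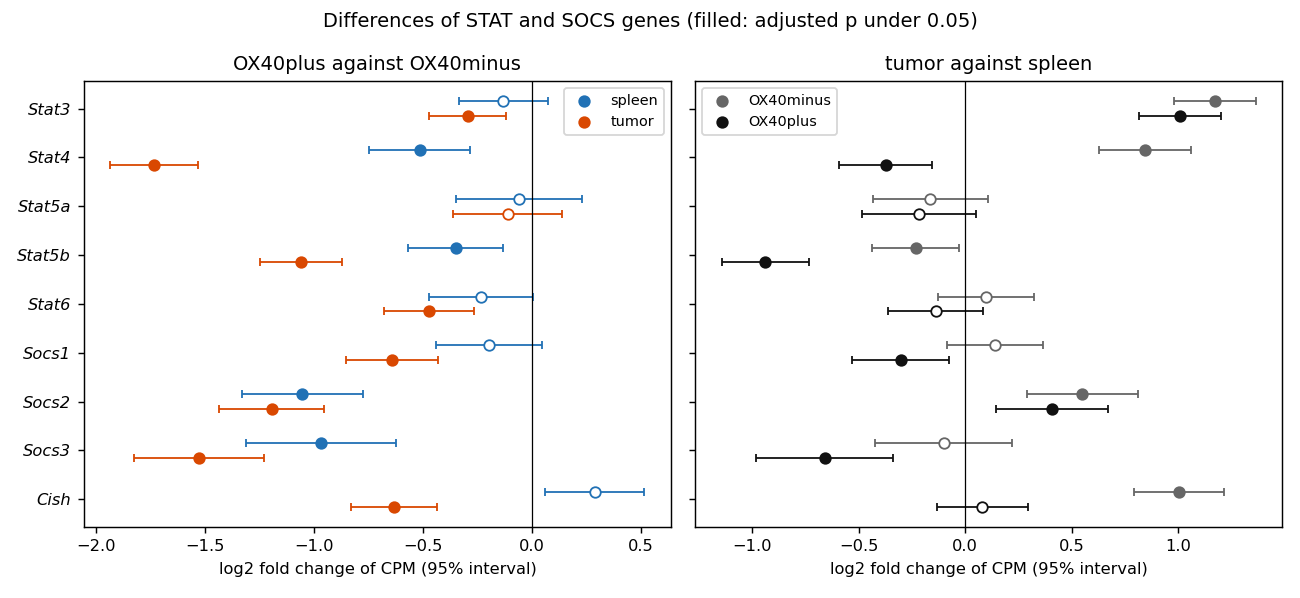
Log2 fold change of CPM with its 95% interval (horizontal axes) for the 9 genes, as OX40plus against OX40minus in each tissue (left) and tumor against spleen in each gate (right), with filled points where the limma adjusted p was under 0.05. In tumors 8 of 9 points are filled and below 0, and on the right Stat4 lies above 0 in OX40minus and below 0 in OX40plus Tregs.

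Between tissues the 9 genes had no common direction. Among OX40plus Tregs 2 were higher in tumor (Stat3 and Socs2) and 4 lower (Stat4, Stat5b, Socs1 and Socs3), with 64.5% of all genes called, 30.2% higher and 34.3% lower. Among OX40minus Tregs 4 were higher in tumor (Stat3, Cish, Stat4 and Socs2) and 1 was lower (Stat5b), with 59% of all genes called, 29.7% higher and 29.3% lower. The comparisons share groups with the OX40 comparisons, so their values are not separate evidence. Scaling by library total alone shifted the median of all genes by -0.10 between tissues in OX40plus Tregs, and 2 further members were then called lower in tumor, Stat5a (-0.32, adjusted p = 0.0385) and Stat6 (-0.24, adjusted p = 0.0487). Stat5a was also called there without tumor OX40plus mouse 1 (-0.33, limma adjusted p = 0.0191). For the difference between the OX40 comparisons, 3 of 9 genes were called (Stat4, Stat5b and Cish), each more negative in tumors, where 10.8% of all genes were called, 4.49% higher and 6.33% lower.

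Levels of different genes can be compared only per length. Which transcript of each gene the cells used was not tested, so orders between genes rest on the annotated length chosen here. Divided by the longest coding transcript in GENCODE M21, spleen OX40minus Tregs had 200 CPM per kilobase of Socs3, 111 of Cish, 66.3 of Socs1 and 42.8 of Socs2. In tumor OX40plus Tregs Cish stood above Socs3, with 144 CPM per kilobase of Cish, 65.7 of Socs3, 46.8 of Socs1 and 27.5 of Socs2. Cish was also above Socs3 in spleen OX40plus (136 against 102) and in tumor OX40minus Tregs (223 against 188). Among the STAT genes the highest level per kilobase was that of Stat3 in both tumor groups, at 142 in OX40minus and 117 in OX40plus, and that of Stat6 in both spleen groups, at 91.6 and 77.9. In tumor OX40plus Tregs Stat5b, at 34.1 CPM per kilobase, was close to Stat5a at 32.1, whereas spleen OX40minus Tregs had 82.9 against 38.4.

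The other genes of the pathway were listed by role, and listed genes that were not among the 12548 are not analysed here. Their counts stand beside a background of 19.9% of all genes lower and 18.5% higher in tumors, and several lists are too short to read against it. Of 4 further STAT and SOCS genes, 2 were lower in tumor OX40plus Tregs and 0 were higher. Stat2, which carries type I interferon signals, was among the lower ones (-0.95 ± 0.14, limma adjusted p = 5.14e-05). Of the 4 Janus kinases, 2 were lower, Jak1 (-0.50) and Jak2 (-0.44), and 2 were not called, Jak3 (-0.10) and Tyk2 (-0.08). Among 23 tested receptors of STAT-activating cytokines 12 were lower and 2 higher, with a median of -0.47. The receptor subunits with the smallest adjusted p were Il6ra for interleukin-6 (-1.39), Ifngr1 for interferon gamma (-0.81), Il10ra for interleukin-10 (-0.94) and Il4ra for interleukin-4 (-1.01). The 2 that were higher were Il12rb2, the interleukin-12 receptor chain that acts through STAT4 (1.00), and Il2ra, the high-affinity interleukin-2 receptor chain (0.62). Among 10 tested cytokines, Il10 (0.73) and Lif (0.80) were higher and Csf2 (-3.35) was lower, the last at no more than 4.54 CPM in any sample.

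Subunits of the ligase family through which SOCS proteins mark targets for degradation went the other way. Which of them act with SOCS proteins in these cells was not tested. All 4 tested, Eloc (0.37), Cul5 (0.33), Cul2 (0.33) and Rnf7 (0.41), were higher in tumor OX40plus Tregs. Of 7 phosphatases and PIAS inhibitors of STATs, 2 were higher, including Ptpn2 (0.47), and 3 were lower, including Pias3 (-0.57) and Pias1 (-0.34). Genes known as STAT5 targets included 7 of 10 that were lower and 2 that were higher. Bcl2, a survival gene (-1.55), Mcl1, another (-0.62), and Gadd45b (-0.72) fell, and Myc, the growth regulator (0.82), and Bcl2l1, a survival gene (0.57), rose. Of 8 STAT3 targets 4 were lower, among them Ahr (-1.12) and Junb (-1.05), and 2 were higher, Batf (0.67) and Il10. Of 8 STAT6 and STAT4 targets 5 were lower, including Il18rap (-1.61), Il18r1 (-1.47) and Gata3 (-0.51), and 2 were higher, Il12rb2 and Tbx21 (0.73).

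In spleens, where 7.89% of all genes were called, the counts of the lists were small, as were those of genes at large. None of the 4 further STAT and SOCS genes, the 4 Janus kinases, the 7 phosphatases and PIAS inhibitors or the 4 ligase subunits was called in limma. At an unadjusted limma p under 0.05 the counts were 1, 2, 1 and 0 in the same order. Of the 23 receptors 1 was lower, Il6ra (-0.93 ± 0.11, limma adjusted p = 7.34e-05), and 0 were higher. Il10 (2.41) and Ifng (1.09) were higher among the cytokines. Of the targets, Bcl2 (-0.71) was among those that were lower, and Bcl2l1 (0.56), Batf (0.99), Icos (0.90) and Gata3 (0.39) were higher. Gata3 was thus called in opposite directions in the 2 tissues, with a difference between them of -0.89 (limma adjusted p = 0.00071).

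**Figure D4:**
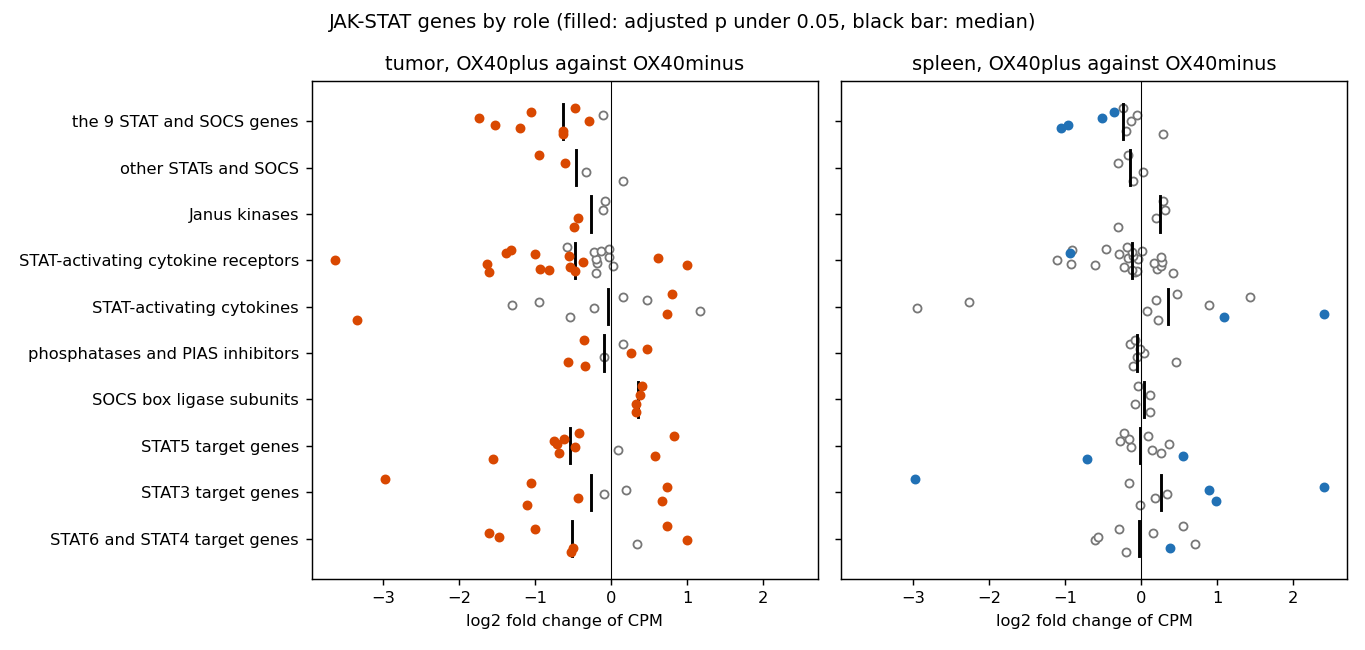
Log2 fold change of CPM (horizontal axis) between OX40plus and OX40minus Tregs for genes of the JAK-STAT pathway in rows by role, in tumors (left) and spleens (right), 1 point per gene, filled where the limma adjusted p was under 0.05, with the median of each row as a black bar. In tumors the median of the 9 STAT and SOCS genes lies at -0.64. All 4 points of the row labelled SOCS box ligase subunits are filled and above 0.

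In OX40plus samples 8 of the 9 STAT and SOCS genes were lower in tumors and 4 of the 9 in spleens. Of the macrophage and monocyte markers, 8 of 8 tested were lower in tumors (median -2.83) and 8 of 8 in spleens (median -3.38). Between the OX40minus groups, whose marker sums were 739 to 942 CPM in spleen and 221 to 333 CPM in tumor, Socs3 overlapped, at 488 to 545 and 409 to 594 CPM. Of the 9 genes, Socs2, Stat3, Stat4 and Cish were higher in tumor OX40minus, where the macrophage and monocyte sum was lower. Stat5b was lower there (-0.23, limma adjusted p = 0.0487), and Stat5a, Stat6, Socs1 and Socs3 were not called. Dendritic cell markers went the other way between the OX40minus groups, with sums of 43.1 to 49.1 CPM in spleen and 134 to 193 CPM in tumor. Of the 6 tested, 4 were higher in tumor and 0 lower. Of 6 tested dendritic cell markers 4 were lower in tumor OX40plus samples, with sums of 134 to 193 CPM in tumor OX40minus and 37.9 to 67.2 CPM in tumor OX40plus. Of 6 NK and CD8 T cell markers 4 were lower there too, with sums of 39.2 to 71.8 and 30.5 to 46.0 CPM, and Eomes was below 3 counts in every tumor OX40plus sample. B cell markers summed to 311 to 427 CPM in spleen OX40minus and 306 to 447 CPM in spleen OX40plus, and to at most 1.5 CPM in any tumor sample. Melanoma markers summed to 90.3 to 135 CPM in tumor OX40minus and 68.0 to 177 CPM in tumor OX40plus. In spleens they summed to 16.8 to 19.6 CPM in OX40minus and 11.2 to 13.7 CPM in OX40plus. Neutrophil markers summed to 34.2 to 52.0 CPM in spleen OX40minus and 21.2 to 23.8 CPM in spleen OX40plus. Their sums were 4.03 to 8.49 CPM in tumor OX40minus and 3.80 to 4.50 CPM in tumor OX40plus. The part of these cells in the levels of the 9 genes was not tested.

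Genes whose levels followed each member most closely were taken from 8041 candidates by Pearson's r of log2 CPM over the 14 samples, which fall into 4 groups and share their libraries, so that r describes the group pattern and carries no test. Stat3 was followed by Ppp1r3b (0.99), Adam8 (0.99) and Plekhb2 (0.99), Stat4 by Nr1d2 (0.96), Cd7 (0.96) and Tasp1 (0.95), and Stat5b by Cyth1 (0.98), Samhd1 (0.98) and Crebrf (0.97). The closest to Stat5a were Banp (0.91), Mlh3 (0.86) and Piezo1 (0.86), and to Stat6 Dnm2 (0.94), Fam102a (0.93) and Prkcd (0.93). Among the feedback genes, Socs1 was nearest to Ltb (0.95), Cnp (0.95) and Rnf114 (0.94), and Socs2 to Crlf3 (0.97), Zdhhc20 (0.96) and Saraf (0.95). Socs3 was nearest to Tmem64 (0.96), Fam49a (0.96) and Jakmip1 (0.94), and Cish to Cers4 (0.95), Dtnb (0.95) and Apobec3 (0.94). Within the 9 genes r was highest for Stat5b with Socs3 (0.91) and Socs1 with Socs3 (0.89), and Cish with Stat5b gave 0.06.

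By position, 4 of the 9 genes lie on chromosome 11 of GRCm38: Stat5b (100780731 to 100850724, minus strand), Stat5a (100859351 to 100885169, plus strand), Stat3 (100885098 to 100939540, minus strand) and Socs3 (117966079 to 117970047, minus strand). Stat5a and Stat3 converge and overlap by 72 bases in GENCODE M21, and since the use of strand in counting is not given, reads from that overlap cannot be told apart. The 3 neighbouring STAT genes had different patterns, with Stat3 high in tumors, Stat5b low in tumor OX40plus Tregs and Stat5a not called in the 5 comparisons. Stat4 lies on chromosome 1 (51987148 to 52107189), Stat6 (127642986 to 127660957) and Socs2 (95385362 to 95417180) on chromosome 10, Socs1 on chromosome 16 (10782240 to 10785536) and Cish on chromosome 9 (107296026 to 107302784).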

How the data were processed

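The authors deposited a table of log2 CPM values for 28 libraries, 2 for each of 14 samples. Per the submitters' processing notes, bcl2fastq 2.19, kallisto, limma and build mm10 were used. Not given in the sources used here were the role of each, the annotation and the use of strand. The analysis plan allowed for counts, but the table held log2 CPM, so no count test was run. Effective library sizes were recovered from each column's lowest value, with 0.5 added to counts. Estimated counts were whole within 0.01 for 43.3% to 49.0% of values per library, and 0 columns of samples were left unused. The median chi-square between both libraries of a sample was 0.495 to 0.578, against 0.455 for sampling noise and 1.43 to 12.8 between mice, so their mean log2 CPM was used as 1 sample.

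Genes needed 0.382 CPM in 3 samples and 15 counts in total. A linear model over the 4 groups was fitted with limma 3.58.1 (R 4.3.3), with a mean-variance trend and Benjamini-Hochberg adjustment, and was tested on simulated data. Both gates of a tissue carry the same mouse number in the sample titles, so the numbers pair the gates. Deviations from the group means correlated by -0.154 to 0.122 within the 7 pairs. Alternatives were this pairing as a block, other scalings, filters, weights and libraries, and each sample left out. CPM of a sample is 2 raised to its log2 CPM, less the added count. The members and gene lists were chosen with earlier results of these data known. Each pathway list is represented by up to 4 called genes of smallest adjusted p, and some genes of these lists are not reported here. Further names in lists with 5 or fewer genes in a direction were chosen after their values were seen. Similar genes had a mean of at least 10 CPM, without predicted gene models and mitochondrial genes. Sequences are from RefSeq tables of build GRCm38.p6 and gene positions from GENCODE M21.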

Additional observations from a re-analysis of the deposited data

Results flagged for a closer look

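For 3 of the 9 genes the OX40plus against OX40minus difference was not the same in tumors and spleens by the direct limma test of the 2 differences. Over all genes tested 10.8% were called there, 4.49% higher and 6.33% lower. Stat4 differed by -1.22 on the log2 scale, with all tumor OX40plus samples below all tumor OX40minus samples and the same order in spleens. Cish differed by -0.92, with OX40plus samples lower in tumors. In spleens its OX40plus samples were higher, but that difference of 0.29 was not called (limma adjusted p = 0.131). Stat5b differed by -0.71, with OX40plus samples lower in both tissues. None of the 18 sets of 4 tumor samples held a sample whose gap to the next exceeded Dixon's 95% limit, and spleen groups of 3 were not examined in this way.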

How the results depend on the processing

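Of 45 results (9 genes in 5 comparisons), 38 kept their call under every alternative run, although 2 that were not called changed sign in some, Cish between tissues in OX40plus Tregs (down to -0.02) and Stat5a for the difference between tissues (up to 0.03), and the other 7 are named with their values beside the results. In a fit of the 2 spleen groups alone, 1849 genes were called in spleens, against 990. Leaving out each sample in turn gave 641 to 1187 genes in spleens (646 without OX40minus mouse 2, 641 without OX40plus mouse 1) and 4268 to 4870 in tumors. For the difference between tissues it gave 762 to 1628 genes against 1357 (822 without spleen OX40minus mouse 2, 762 without spleen OX40plus mouse 1). There, 3 to 5 of the 9 genes were called, with 5 without tumor OX40plus mouse 1. With the mouse as a replicate block, 4484 genes were called in tumors, 857 in spleens and 960 for the difference. Among the 9 genes the block changed the calls of Stat5b in spleens and of Socs3 for the difference, and no other. Mice are nested in tissues, so the block gave no tissue comparison. With 3 mice per spleen group, small differences may be missed.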
